A study of Drosophila melanogaster with 90 samples.

Results

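The genes described here are the long noncoding RNA (lncRNA) genes that were well counted in heads of female Drosophila melanogaster. They are the rows of the deposited gene count table whose FlyBase symbol begins with "lncRNA:" and whose median count over the 87 libraries was at least 100. Of 9027 rows in the table, 102 carried that prefix; 35 met the threshold and the other 67 fell under it. The members were chosen by their measured counts, so their levels are given as a description, with no test. Just inside the threshold lay CR45533 with a median count of 113, CR43411 with 110 and CR44317 with 101. Just outside it lay CR42868 with 95, CR43242 with 91 and CR45115 with 87.

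All females were of the Canton-S strain, reared at 25 °C in cycles of 12 h of light and 12 h of dark with lights on at 8 AM. Wildtype-mated females had mated with a wildtype male between 8 and 11 AM, SP-null-mated females had mated in the same hours with a male lacking Sex Peptide, and virgin females were frozen alongside them. Heads were collected at 10 time points after mating, at 0.5 h, hourly up to 6 h, and at 8, 12 and 24 h, pooled from whole frozen flies. The series was run 3 times (repeats A, B and C), which gave 30 groups of 3 libraries, except that wildtype-mated at 2 h, wildtype-mated at 3 h and virgin at 6 h were analysed here with 2. Change over time in virgins describes the day without mating, wildtype-mated against virgin heads describes mating as a whole, and wildtype-mated against SP-null-mated heads describes receipt of Sex Peptide. The 12 h heads were taken after lights-off, and the 24 h heads at the clock hours of the mating window on the next day.

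Long noncoding RNAs are transcripts with no known protein product. Some act as RNA, for example by gathering proteins in the nucleus or by guiding them to chromatin, some are the precursors from which microRNAs are cut, and most in the fly have no known role. In the head, a clock of transcription factors and their repressors drives daily change of many RNAs. Sex Peptide is made in the male accessory gland and passed to the female in the ejaculate. It acts through a receptor on female neurons and is known for raising egg laying and lowering receptivity to further mating.

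Library totals lay between 15411046 and 103387056 counts, with a median of 19740478, and the deepest library was wildtype-mated 24 h repeat A. The 35 lncRNA genes held 0.55% to 0.82% of the counts of a library. The label of the tissue held in the marker check: photoreceptor, neuron, glia, fat body and muscle genes were counted in every treatment. Of 5 ovary and germline markers 1 had a row, grk, at 17.8 to 26.7 CPM (counts scaled to library size) in wildtype-mated, 17.3 to 25.8 CPM in SP-null-mated and 16.7 to 24.8 CPM in virgin heads. Of 8 core clock genes 7 passed the test for change over time in virgins, where tim differed by 2.91 ± 0.230 (log2, SE) between 12 h and the first hour and Clk by -2.25 ± 0.101. Between wildtype-mated and virgin heads 6 of the 8 were also called (28.6% of all genes). Between SP-null-mated and virgin heads 2 were called (7.06% of all genes), and between the mated groups 1 (18.5% of all genes). In bulk heads, fewer cells of a type and less RNA per cell cannot be told apart.

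The 35 genes were spread over the genome, with 11 on X, 8 on 3R, 7 on 2R, 5 on 3L, 3 on 2L and 1 on chromosome 4 (build BDGP6, the same coordinates as dm6). Their exons summed to between 214 and 21710 bases, with a median of 1476, and 21 genes had a single exon block. Another annotated gene overlapped 21 of the 35. Exons met exons of another gene in 10 cases, on the same strand in 4 and on the opposite strand in 6, and in the other 11 the overlap touched no such exon or held only a small RNA gene. Counts of a gene whose exons meet those of another are uncertain, because the strand setting of the counting was not given in the sources used here. Among the members are 5 microRNA hosts: Hsromega holds mir-4951, mimi overlaps mir-9381, CR43459 holds mir-34 and mir-277, CR43650 holds mir-8 and CR46006 holds mir-276a, each on the same strand. The libraries were poly(A)-selected, so the host transcripts were counted and the mature microRNAs were not.

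**Figure D1:**
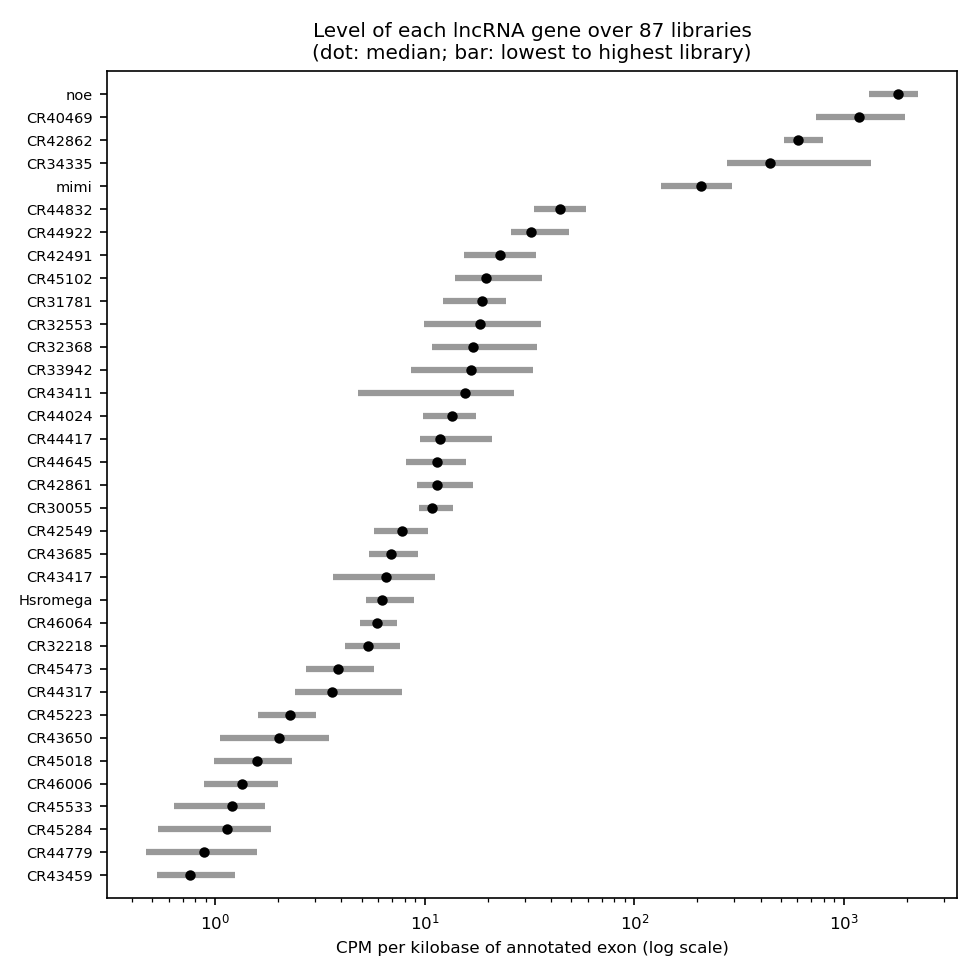
Level of each of the 35 lncRNA genes, as CPM per kilobase of annotated exon on a log scale. Dots are medians over 87 libraries and bars run between the lowest and the highest library; noe lies highest with a median of 1815 and CR43459 lowest with 0.760.

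A handful of lncRNAs made up most of this RNA. Together, lncRNA:CR42862 and lncRNA:noe held 75.3% to 83.1% of the counts of the 35 genes in a library. CR42862 (3L, 224106 to 230964, plus strand) had a median of 3318 CPM, between 2833 and 4354 CPM over the libraries. The single-exon gene noe (3L, 17400272 to 17401348, minus strand) lies within blot, outside its exons, and had a median of 1955 CPM, between 1423 and 2441 CPM. Per kilobase of exon the order began with noe at 1815 CPM, followed by CR40469 at 1179, CR42862 at 605, CR34335 at 442 and mimi at 207. The ranges over libraries of noe and CR40469 overlapped, as did those of CR42862 and CR34335. CR40469 (X, 122493 to 122706, plus strand) is the shortest member, and whether similar sequence lies elsewhere in the genome was not analysed here.

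At the other end of the order stood long, thinly covered genes. Per kilobase of exon the median was 1.14 CPM for lncRNA:CR45284, 0.885 CPM for lncRNA:CR44779 and 0.760 CPM for lncRNA:CR43459, and the ranges of the 3 overlapped. Hsromega is known in flies as a heat-inducible locus whose nuclear transcripts gather RNA-binding proteins in omega speckles. Its level was 135 CPM in the median library, but only 6.21 CPM per kilobase, because its annotated exon covers 21710 bases (3R, 21296127 to 21317836, plus strand). Steadiness over the 87 libraries also varied between members: the highest library was 1.45 times the lowest for CR30055, and 5.53 times the lowest for CR43411. Exon bins were given for 10 of the 35 genes, and in lncRNA:CR34335 the listed bin held between 60.6% and 96.0% of the counts of the gene.

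Over the sampled day, 18 of the 35 lncRNA genes changed in wildtype-mated heads, 13 in SP-null-mated heads and 12 in virgins, each close to the share of all genes. These counts come from an F test over the 9 differences between time points (edgeR quasi-likelihood, Benjamini-Hochberg adjusted p under 0.05 over all 9024 genes tested). In wildtype-mated heads it called 51.4% of the lncRNA genes, beside 52.6% of all genes and 54.4% of genes with a median count of at least 100. In SP-null-mated heads the shares were 37.1%, 36.5% and 37.4%, and in virgins 34.3%, 29% and 29.7%. At 12 h in virgins 2 of 7 photoreceptor, 1 of 5 glia and 1 of 4 fat body markers were also called lower (12.3% of all genes). Their part in the daily changes was not tested. A set of 5 genes was called in all 3 treatments: CR31781, CR32553, CR43417, CR44317 and Hsromega. In no treatment were 13 of the 35 called, and the most abundant 5 per kilobase supplied 3 of those, CR40469, CR34335 and mimi. The shares of all genes called in all 3 treatments or in none were not counted, so these 2 counts are descriptions without a background.

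**Figure D2:**
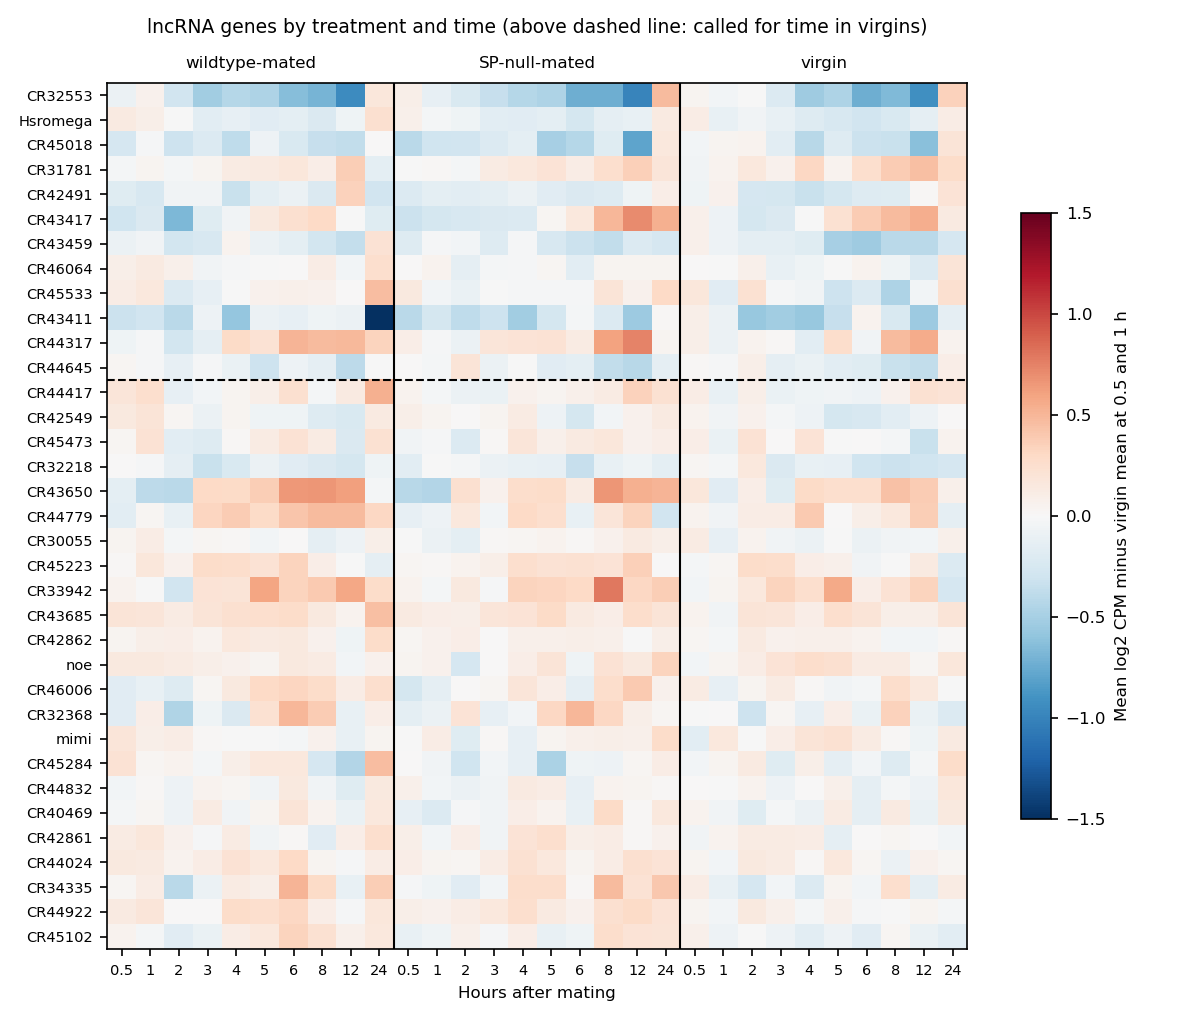
Mean log2 CPM of the 35 lncRNA genes in each treatment and time point (hours after mating), minus the mean of virgins at 0.5 and 1 h. Red is higher and blue lower; the dashed line separates the 12 genes called for time in virgins (above) from the rest. CR32553 is blue at 6 and 12 h in all 3 treatments, and CR43411 is darkest at 24 h in wildtype-mated heads.

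lncRNA:CR32553 showed the clearest daily course. It has 3 exon blocks on X (18124575 to 18127027, minus strand), overlaps no other gene, and has no role known from these sources. In virgins its repeats A, B and C stood at 26.2, 26.04 and 26.8 CPM at 0.5 h, at 16.3 and 14.4 CPM at 6 h (A and B), at 12.7, 15.1 and 12.9 CPM at 12 h, and at 34.9, 29.4 and 33.8 CPM at 24 h. Every 12 h library lay below every library of the first hour (0.5 and 1 h), and every 24 h library but 1 lay above them. The log2 difference between 12 h and the first hour was -0.93 ± 0.131 in wildtype-mated heads (adjusted p = 4.57e-08), -0.97 ± 0.131 in SP-null-mated heads (adjusted p = 2.79e-08) and -0.93 ± 0.131 in virgins (adjusted p = 6.59e-08). At 24 h the difference from the first hour was called in SP-null-mated heads (0.50 ± 0.118, adjusted p = 0.0045), a call that was lost without repeat A (0.42, adjusted p = 0.14) and without repeat B (0.42, adjusted p = 0.15). The change over time was called under all 7 alternatives in each treatment.

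lncRNA:CR45018 also lay lowest at the end of the day. It sits inside IP3K2 on the same strand (X, 13304005 to 13308004), and 35.8% of its exon bases are also exon bases of that gene, an inositol trisphosphate kinase. In virgins it stood at 7.82, 6.84 and 7.04 CPM at 0.5 h, at 8.29, 8.70 and 6.08 CPM at 1 h, at 5.28, 4.504 and 4.52 CPM at 12 h, and at 9.27, 7.96 and 8.22 CPM at 24 h. The 12 h libraries lay below all those of the first hour. At 12 h in virgins CR45018 fell by 0.65 ± 0.131 (log2, adjusted p = 9.97e-05), and IP3K2 fell by 0.46 ± 0.0892 in the same contrast (adjusted p = 4.94e-05). How reads over their common exons were assigned was not given in these sources; over the 87 libraries their log2 CPM had a Pearson correlation of 0.35, as a description.

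lncRNA:CR31781 moved the other way, with its highest mean of the virgin series at 12 h. This gene has 4 exon blocks on 2L (16869346 to 16878300, plus strand) and overlaps no other gene. In virgins it stood at 46.995, 47.03 and 37.5 CPM at 0.5 h, at 45.9, 50.4 and 44.1 CPM at 1 h, at 60.2, 64.8 and 60.1 CPM at 12 h, and at 55.5, 54.4 and 54.4 CPM at 24 h. Both the 12 h and the 24 h libraries lay above all those of the first hour. The rise at 12 h was 0.38 ± 0.0837 in wildtype-mated heads (log2, adjusted p = 0.000253), 0.36 ± 0.0837 in SP-null-mated heads (adjusted p = 0.000703) and 0.45 ± 0.0836 in virgins (adjusted p = 2.63e-05), and each stayed called without any 1 repeat. At 24 h it was the only 1 of the 35 genes called against the first hour in virgins (0.27 ± 0.0842, adjusted p = 0.0431), where 4.65% of all genes were called; with a replicate block 2 of the 35 were called. That call was lost without repeat A, B or C in turn, with adjusted p of 0.21, 0.077 and 0.38.

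lncRNA:Hsromega changed over time in all 3 treatments by a small amount. In virgins it stood at 154, 161 and 148 CPM at 0.5 h, at 120 and 114 CPM at 6 h, at 135, 138 and 119 CPM at 12 h, and at 166, 147 and 151 CPM at 24 h. Its virgin mean was lowest at 6 h and highest at 24 h, and the highest mean was 1.32 times the lowest. The adjusted p for time was 1.72e-06 in wildtype-mated heads, 0.000509 in SP-null-mated heads and 9.89e-05 in virgins. Without repeat B the call was lost in SP-null-mated heads (adjusted p = 0.185) and in virgins (adjusted p = 0.125). Of the 8 genes for proteins known to gather with Hsromega RNA, 5 were called for time in wildtype-mated heads (52.6% of all genes). In SP-null-mated heads 4 were called (36.5% of all genes) and in virgins 2 (29% of all genes), Hrb87F and Hrb98DE. None of the 8 was called between treatments, where 28.6%, 7.06% and 18.5% of all genes were called in the 3 comparisons. Any link of these genes to the course of Hsromega was not tested.

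**Figure D3:**
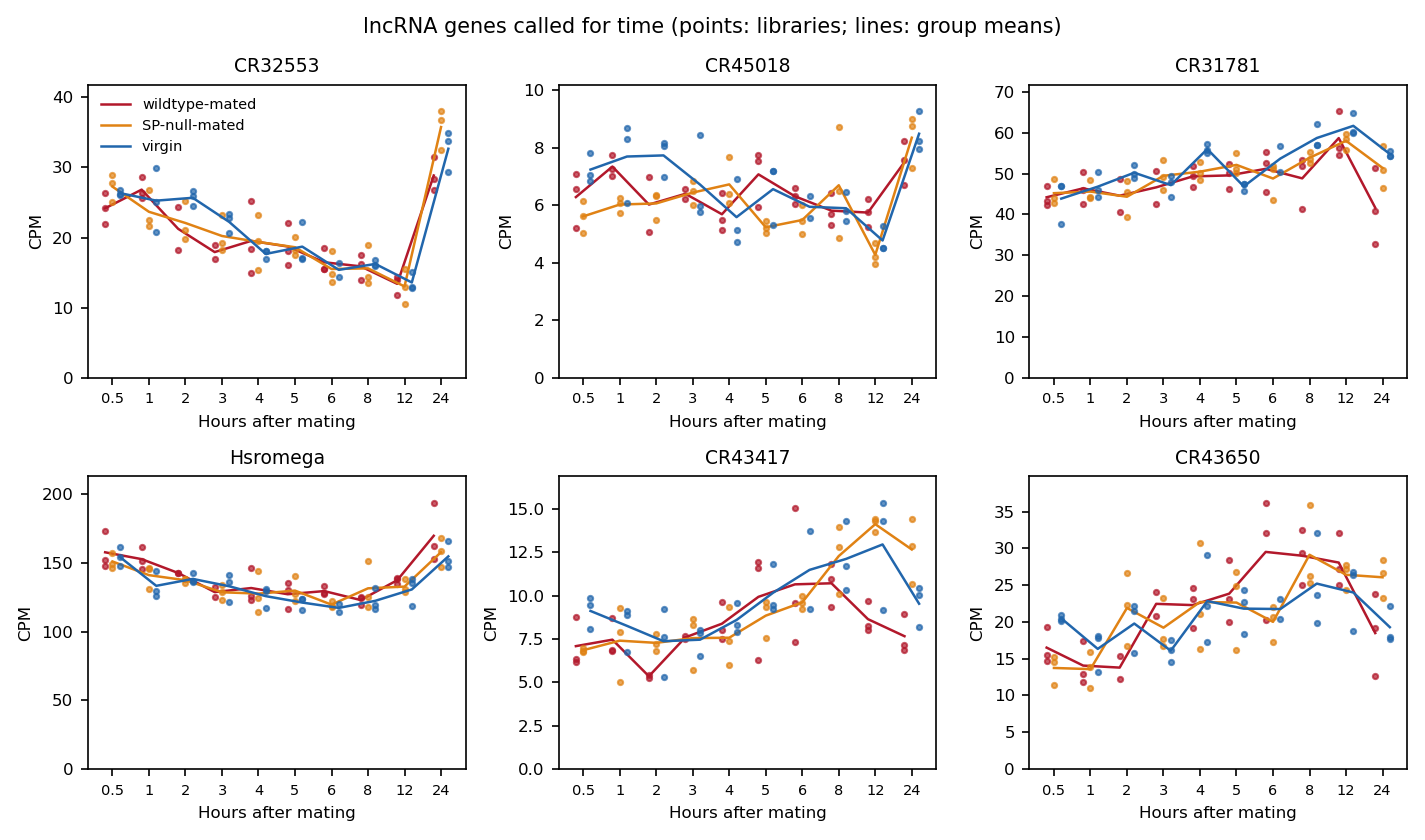
CPM of 6 lncRNA genes called for time in at least 1 treatment, by hours after mating; points are libraries, lines are group means, and colours are the treatments. CR32553 and CR45018 are lowest at 12 h in virgins, CR31781 and CR43417 are highest there, and Hsromega has a shallow trough at 5 to 8 h.

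lncRNA:CR43417 (2R, 16817519 to 16819240, minus strand) rose over the day in SP-null-mated and virgin heads. In wildtype-mated heads it was also called for time, with its lowest mean at 2 h (5.35 CPM) and its highest at 8 h (10.7 CPM). In SP-null-mated heads it stood at 6.78, 6.98 and 6.804 CPM at 0.5 h and at 14.3, 13.7 and 14.4 CPM at 12 h. In virgins it stood at 8.08, 9.43 and 9.84 CPM at 0.5 h and at 15.4, 14.3 and 9.17 CPM at 12 h. The SP-null-mated libraries of the 2 times did not overlap, while repeat C of the virgins lay at 12 h within the range of the first hour. The log2 difference between 12 h and the first hour was 0.98 ± 0.173 in SP-null-mated heads (adjusted p = 9.43e-06) and 0.58 ± 0.175 in virgins (adjusted p = 0.00956). The virgin call was lost without repeat A (0.33, adjusted p = 0.19) and without repeat B (0.55, adjusted p = 0.14). CR43417 overlaps CG5550 on the opposite strand by 59 exon bases, and CG5550 had no row in the table used here.

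Hosts of well-studied microRNAs were among the genes called for time. lncRNA:CR43650 (2R, 16829095 to 16839494, plus strand) is the host of mir-8, the fly member of the miR-200 family, known for roles in growth and in neurons. In wildtype-mated heads it stood at 15.5, 14.7 and 19.2 CPM at 0.5 h and at 24.9, 32.1 and 27.1 CPM at 12 h. In SP-null-mated heads it stood at 15.2, 11.4 and 14.5 CPM at 0.5 h and at 24.4, 27.2 and 27.7 CPM at 12 h. All 12 h libraries of the mated females lay above their 0.5 h libraries. In virgins it stood at 20.1, 20.4 and 20.9 CPM at 0.5 h, and at 26.8, 26.4 and 18.8 CPM at 12 h, so the times overlapped. The log2 difference between 12 h and the first hour was 0.88 ± 0.184 in wildtype-mated heads (adjusted p = 9.86e-05) and 0.94 ± 0.184 in SP-null-mated heads (adjusted p = 5.54e-05), and both stayed called without any 1 repeat. At 24 h it was still called in SP-null-mated heads (0.92 ± 0.185, adjusted p = 0.000713). In virgins CR43650 was not called for time, and it was called in no comparison of treatments, so a difference between the courses of mated and virgin heads was not shown.

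lncRNA:CR46006 (3L, 10323501 to 10367450, plus strand) is the host of mir-276a, which is known in flies for roles in memory and in repressing timeless. It was called for time in both mated treatments and not in virgins. In SP-null-mated heads it stood at 12.5, 10.2 and 10.1 CPM at 0.5 h and at 16.4, 16.1 and 19.3 CPM at 12 h, with no overlap, and the log2 difference of 12 h from the first hour was 0.59 ± 0.130 (adjusted p = 0.00029). lncRNA:CR43459 (3R, 10093761 to 10101356, plus strand) is the host of mir-34, known in flies for its part in ageing of the brain, and of mir-277, known for its link to amino acid breakdown. In virgins CR43459 stood at 7.62, 6.98 and 6.46 CPM at 0.5 h, at 5.18 and 4.00 CPM at 6 h, and at 4.63, 5.53 and 4.89 CPM at 12 h. All of the 6 h and 12 h values lay below those at 0.5 h, and the log2 difference of 12 h from the first hour was -0.42 ± 0.129 (adjusted p = 0.0118). That call was lost without repeat A (-0.31, adjusted p = 0.15) and without repeat B (-0.46, adjusted p = 0.06). Of 6 genes of the microRNA pathway, drosha was the only 1 called for time in virgins (29% of all genes), with a log2 difference of 0.15 ± 0.0451 at 12 h. In SP-null-mated heads 2 were called for time (36.5% of all genes) and in wildtype-mated heads 3 (52.6%). Between treatments drosha alone was called, for wildtype-mated against virgin heads (28.6% of all genes) and against SP-null-mated heads (18.5%). None was called between SP-null-mated and virgin heads (7.06%).

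The remaining members of the rule in virgins were lncRNA:CR42491 and lncRNA:CR46064. CR42491 had its lowest virgin mean at 4 h (14.8 CPM) and its highest at 24 h (21.3 CPM). CR46064 (2R, 4782892 to 4785543, plus strand) stood at 13.6, 13.5 and 13.2 CPM at 12 h and at 17.03, 18.1 and 17.9 CPM at 24 h in virgins, and its 12 h log2 difference from the first hour was -0.21 ± 0.0766 (adjusted p = 0.034), a call that was lost without any 1 repeat (adjusted p of 0.16, 0.11 and 0.11). Of its exon bases 27.7% are shared on the opposite strand with the pseudogene CR43281.

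Set against the first hour, the calls at 12 h ran in both directions, and those at 24 h were mostly higher. At 12 h in wildtype-mated heads 12 of the 35 genes were called (35.1% of all genes), 6 higher and 6 lower (20.4% and 14.7% of all genes). In SP-null-mated heads 12 were called (29.4% of all genes), 9 higher and 3 lower (16.1% and 13.3% of all genes). In virgins 10 were called (25% of all genes), 3 higher and 7 lower (12.7% and 12.3% of all genes). The median of the 35 log2 differences at 12 h was -0.15 in wildtype-mated heads, 0.11 in SP-null-mated heads and -0.04 in virgins, and that of all genes was 0.0011, 0.011 and 0.012 in the same treatments. At 24 h 6 were called in wildtype-mated heads (39.7% of all genes), 5 higher and 1 lower. In SP-null-mated heads 4 were called (7.88% of all genes), all higher, and in virgins 1 (4.65% of all genes), also higher. The split by direction over all genes at 24 h is not given here.

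Between treatments 27 of the 35 lncRNA genes passed none of the 3 tests over the 10 matched time points. The share of all genes that passed none of the 3 was not counted, so the tests are compared with all genes 1 at a time. Wildtype-mated and virgin heads differed for 5 of the 35, or 14.3%, beside 28.6% of all genes and 29.7% of genes with a median count of at least 100. Wildtype-mated and SP-null-mated heads also differed for 5, or 14.3%, beside 18.5% and 19.1%. SP-null-mated and virgin heads differed for none, beside 7.06% and 7.26%; by edgeR 2 had an unadjusted p under 0.05, with a replicate block 1 was called, CR45018 (adjusted p = 0.0454 by edgeR), and by DESeq2 the same gene (adjusted p = 0.0353). Its adjusted p over the 7 alternatives ran between 0.0353 and 0.575. Both comparisons with wildtype-mated heads share those libraries, so their values are given side by side and not as repeats of each other. CR43411 and CR42491 were called in both, CR31781, CR44417 and CR43459 only against virgins, and CR43417, CR44779 and CR45018 only against SP-null-mated heads; passing in one and not in the other does not show that the 2 comparisons differ.

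**Figure D4:**
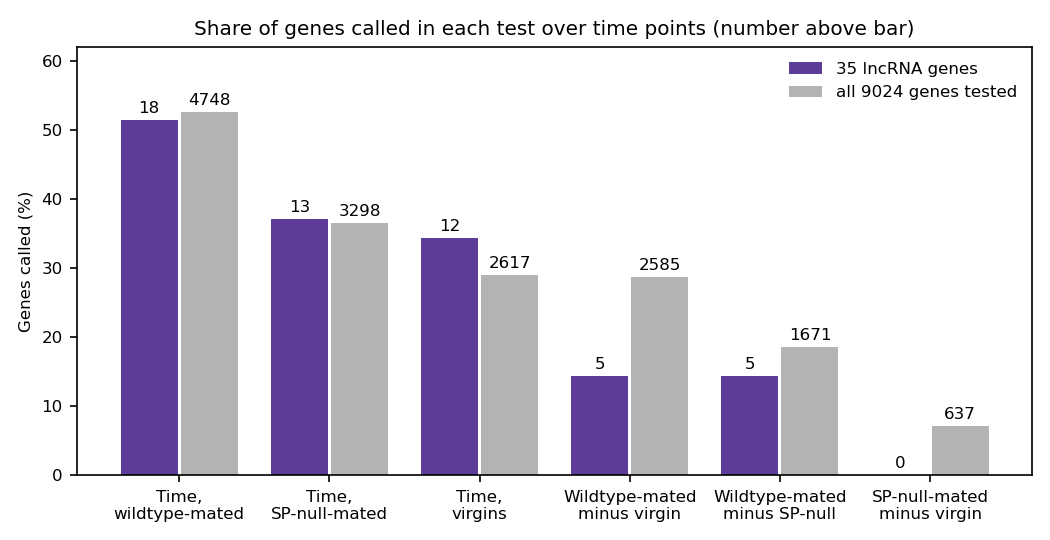
Share of genes called (%) in each of 6 tests over time points, for the 35 lncRNA genes and for all 9024 genes tested, with the number called above each bar. The bars of the lncRNA genes are close to those of all genes for time and lower in the 3 comparisons of treatments.

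The calls between treatments gathered at 24 h. Taken 1 time point at a time, wildtype-mated and virgin heads differed in 7 of the 35 genes at 24 h (beside 29.2% of all genes) and in none at the other 9 time points, where between 0.266% and 6.32% of all genes were called. Of the 7, 4 were higher and 3 lower, beside 14.6% of all genes in each direction. Wildtype-mated and SP-null-mated heads differed in 8 at 24 h (beside 28.3% of all genes), in 3 at 12 h (beside 9.82%) and in none at the other 8, where between 0% and 5.87% of all genes were called. Of the 8, 4 were higher and 4 lower (14.4% and 13.9% of all genes), and of the 3, 1 was higher and 2 lower (6.49% and 3.32%). SP-null-mated and virgin heads differed in none at any of the 10 time points, where between 0% and 4.55% of all genes were called. With the 24 h contrast taken out of the test, the count fell to 0 against virgins (15.7% of all genes) and to 1 against SP-null-mated heads (CR45018, 9.38% of all genes), and CR45018 was then also called between SP-null-mated and virgin heads (adjusted p = 0.0385, 7.17% of all genes). The difference between treatments itself changed with time in 2 of the 35, CR43411 and CR42491, both against virgins (14.2% of all genes) and against SP-null-mated heads (11.8% of all genes). Over all time points, 3 of 5 glia markers, 1 of 4 fat body markers and 1 of 4 muscle markers were called between wildtype-mated and virgin heads. The share of all genes called in that test was 28.6%. The called glia markers differed in direction: averaged over time points, Gs2 was higher (0.20, log2) and repo and moody were lower (-0.11 each). The summed glia markers lay at 1863 to 2317 CPM in wildtype-mated, 1685 to 2364 CPM in SP-null-mated and 1654 to 2171 CPM in virgin heads, and their part in the results was not tested.

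lncRNA:CR43411 showed the largest response among the 35 genes at 24 h. It is a single exon of 364 bases on 2L (14613258 to 14613621, plus strand) inside osp, on the opposite strand and outside its exons. At 24 h it stood at 2.92, 1.75 and 2.45 CPM in wildtype-mated heads, at 5.04, 8.71 and 8.20 CPM in SP-null-mated heads and at 4.31, 8.46 and 7.27 CPM in virgins, from counts of 305, 34 and 57, of 115, 161 and 170, and of 86, 236 and 146. All 3 wildtype-mated libraries lay below all 6 of the others, and SP-null-mated and virgin libraries overlapped. The log2 difference was -1.42 ± 0.220 against virgins (adjusted p = 2.99e-06) and -1.53 ± 0.221 against SP-null-mated heads (adjusted p = 6.05e-07). Both stayed called without any 1 repeat, at -1.91 to -1.08 against virgins and -1.99 to -1.27 against SP-null-mated heads. The difference of SP-null-mated from virgin heads was 0.11 ± 0.209 (adjusted p = 0.958).

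At the earlier time points lncRNA:CR43411 was called between no treatments. At 12 h it lay at 5.72, 7.40 and 6.79 CPM in wildtype-mated heads, at 5.09, 4.88 and 4.49 CPM in SP-null-mated heads and at 4.80, 5.02 and 4.60 CPM in virgins, so that the wildtype-mated libraries were the highest there, with no call. Within wildtype-mated heads the 24 h level lay -1.19 ± 0.198 (log2) from the first hour (adjusted p = 4.43e-06), while no such call was made in the other treatments. Its host gene osp differed by -0.07 ± 0.0552 between wildtype-mated and virgin heads at 24 h (adjusted p = 0.376). In virgins CR43411 had a 12 h difference of -0.57 ± 0.193 from the first hour (adjusted p = 0.0225), lost without repeat C (-0.35, adjusted p = 0.38).

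lncRNA:CR42491 was the other gene called against both virgin and SP-null-mated heads. It lies on X (762615 to 763810, minus strand) inside RpL22, a ribosomal protein gene on the same strand, and 50.5% of its exon bases are exon bases of RpL22. At 24 h it stood at 15.4, 19.3 and 11.5 CPM in wildtype-mated heads, at 19.9, 18.1 and 21.3 CPM in SP-null-mated heads and at 22.4, 20.8 and 20.7 CPM in virgins. The wildtype-mated libraries lay below all virgin libraries and overlapped the SP-null-mated ones. The log2 difference at 24 h was -0.47 ± 0.122 against virgins (adjusted p = 0.00275) and -0.37 ± 0.123 against SP-null-mated heads (adjusted p = 0.0199). At 12 h the sign was the opposite, with 21.1, 25.3 and 24.2 CPM in wildtype-mated heads against 17.1, 18.9 and 17.1 CPM in SP-null-mated heads (0.41 ± 0.123, adjusted p = 0.0217). RpL22 itself had a 24 h difference of -1.41 ± 0.614 from virgins (adjusted p = 0.0737). Without wildtype-mated 24 h repeat C the 24 h differences were -0.32 (adjusted p = 0.0994) and -0.21 (adjusted p = 0.281), without wildtype-mated 24 h repeat A the second was -0.37 (adjusted p = 0.0509), and without any 1 repeat of the series the 12 h call was lost.

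**Figure D5:**
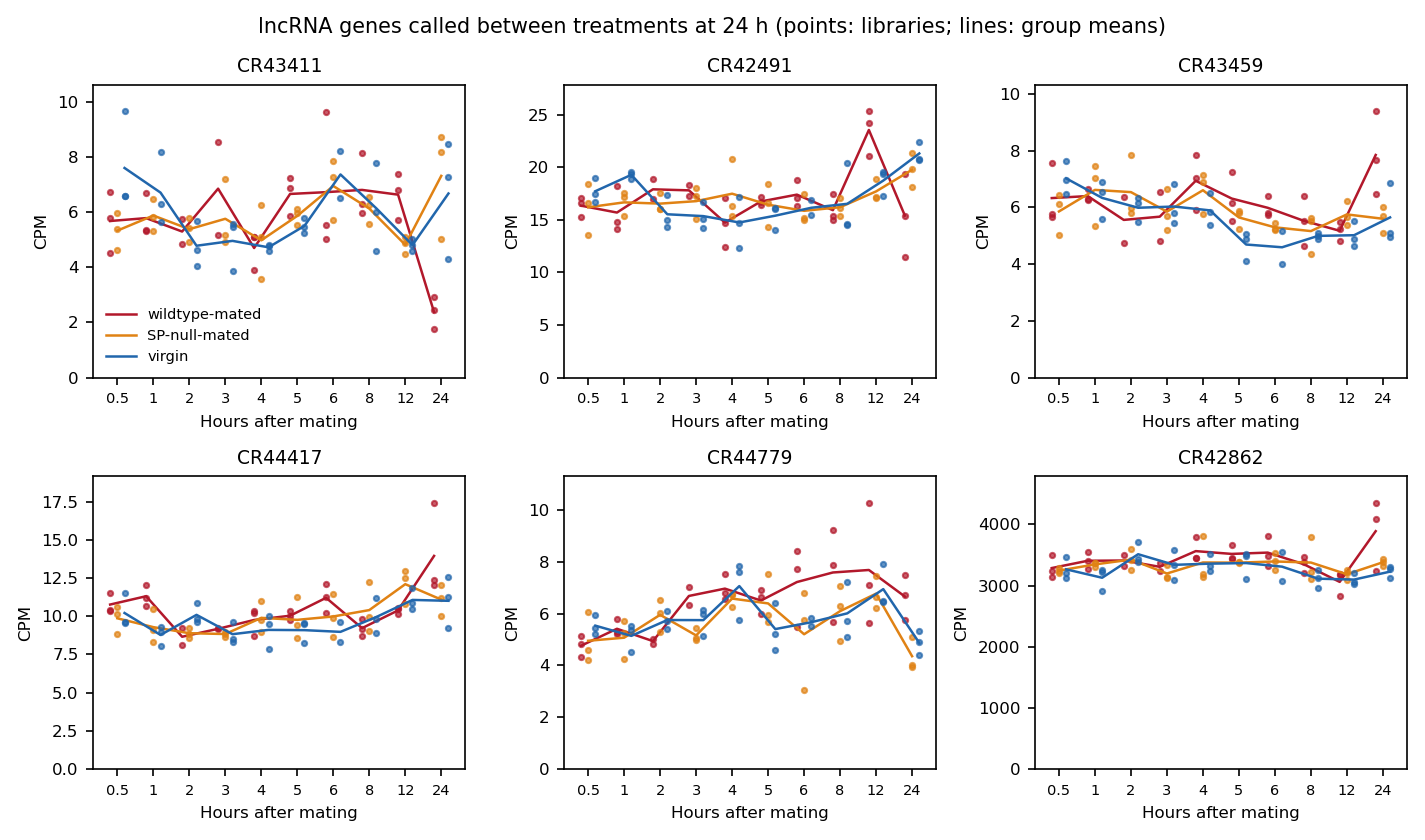
CPM of 6 lncRNA genes called between treatments at 24 h, by hours after mating; points are libraries, lines are group means, and colours are the treatments. At 24 h the wildtype-mated libraries of CR43411 lie at 1.75 to 2.92 CPM, below all others, and those of CR43459, CR44779 and CR44417 have the highest means.

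lncRNA:CR31781 and lncRNA:CR43459 differed at 24 h in opposite directions. CR31781 stood at 40.8, 51.4 and 32.7 CPM in wildtype-mated heads, at 50.9, 56.8 and 46.4 CPM in SP-null-mated heads and at 55.5, 54.4 and 54.4 CPM in virgins. Its wildtype-mated libraries lay below all virgin libraries, with a log2 difference of -0.40 ± 0.0973 (adjusted p = 0.00167), and overlapped the SP-null-mated ones, with -0.31 ± 0.0976 (adjusted p = 0.0147). CR43459, the host of mir-34 and mir-277, stood at 6.47, 7.67 and 9.39 CPM in wildtype-mated heads, at 5.09, 6.01 and 5.69 CPM in SP-null-mated heads and at 5.11, 4.95 and 6.87 CPM in virgins. Its wildtype-mated libraries lay above all SP-null-mated ones and overlapped the virgins, with log2 differences of 0.46 ± 0.137 against virgins (adjusted p = 0.01) and 0.46 ± 0.139 against SP-null-mated heads (adjusted p = 0.00967). Without wildtype-mated 24 h repeat C no call was left, with -0.26 and -0.17 for CR31781 (adjusted p of 0.0886 and 0.281) and 0.31 and 0.32 for CR43459 (adjusted p of 0.172 and 0.147). Its neighbour Fmr1, a regulator of translation that lies 64 bases away, differed by -0.07 ± 0.0563 from virgins at 24 h (adjusted p = 0.376).

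lncRNA:CR44417, lncRNA:CR44779 and lncRNA:CR42862 were higher in wildtype-mated heads at 24 h. CR44417, inside Mapmodulin on the opposite strand (2R, 17869027 to 17869857), stood at 12.0, 12.4 and 17.4 CPM in wildtype-mated heads, 11.2, 12.1 and 9.99 CPM in SP-null-mated heads and 12.6, 11.3 and 9.21 CPM in virgins. Its log2 difference was 0.33 ± 0.112 against virgins and 0.32 ± 0.113 against SP-null-mated heads (adjusted p of 0.0229 and 0.0276), and repeat C alone lay above all others: without wildtype-mated 24 h repeat C both were 0.14 (adjusted p of 0.439 and 0.45). CR44779 (X, 1047242 to 1088866, plus strand) stood at 7.49, 5.76 and 6.72 CPM in wildtype-mated heads, 3.95, 4.00 and 5.11 CPM in SP-null-mated heads and 5.31, 4.91 and 4.38 CPM in virgins, with no overlap. Its log2 differences were 0.48 ± 0.171 against virgins (adjusted p = 0.0304) and 0.64 ± 0.176 against SP-null-mated heads (adjusted p = 0.00508). Without wildtype-mated 24 h repeat A they were 0.36 (adjusted p = 0.169) and 0.52 (adjusted p = 0.0521), and without wildtype-mated 24 h repeat C the difference from virgins was 0.48 (adjusted p = 0.0884).

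The most abundant member, lncRNA:CR42862, stood at 24 h at 4079, 3231 and 4354 CPM in wildtype-mated heads, at 3433, 3320 and 3387 CPM in SP-null-mated heads and at 3122, 3297 and 3263 CPM in virgins. Repeats A and C of the wildtype-mated heads lay above every other library of that time and repeat B lay among them. The log2 difference was 0.27 ± 0.0774 against virgins (adjusted p = 0.00699) and 0.20 ± 0.0773 against SP-null-mated heads (adjusted p = 0.0425). Without wildtype-mated 24 h repeat C these were 0.18 (adjusted p = 0.161) and 0.11 (adjusted p = 0.381), without wildtype-mated 24 h repeat A the second was 0.17 (adjusted p = 0.15), and with another scaling, RLE size factors, the second was 0.18 (adjusted p = 0.0683). Over the test of all 10 time points CR42862 was called in no comparison of treatments.

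lncRNA:CR43417 differed between the 2 kinds of mated female. At 12 h it stood at 8.22, 9.69 and 8.02 CPM in wildtype-mated heads, against 14.3, 13.7 and 14.4 CPM in SP-null-mated heads. At 24 h it stood at 6.88, 7.15 and 8.96 CPM in wildtype-mated heads, against 10.7, 14.4 and 12.9 CPM in SP-null-mated heads. The 2 groups did not overlap at either time, and the virgins lay between them in the mean at both. The log2 difference was -0.71 ± 0.204 at 12 h (adjusted p = 0.0171) and -0.74 ± 0.201 at 24 h (adjusted p = 0.00462). The 12 h call was lost without repeat B (-0.83, adjusted p = 0.16) or C (-0.64, adjusted p = 0.11), and the 24 h call without repeat B (-0.61, adjusted p = 0.11). The third gene called between the mated groups at 12 h, lncRNA:CR42549, is named after its values were seen: its difference was -0.30 ± 0.101 (adjusted p = 0.049), lost without any 1 repeat. lncRNA:CR45018, called over all time points between wildtype-mated and SP-null-mated heads (adjusted p = 0.0316), passed at no single time point. Averaged over time points, its wildtype-mated heads differed from SP-null-mated heads by 0.09 ± 0.0479 (log2) and from virgins by -0.04 ± 0.0484. SP-null-mated heads differed from virgins by -0.13 ± 0.0475, and no average was called. At 4 of 10 time points all wildtype-mated libraries lay above all SP-null-mated ones, and at no time point below all of them. At 12 h they stood at 6.22, 5.25 and 5.74 CPM, against 4.66, 3.95 and 4.18 CPM in SP-null-mated heads. IP3K2, which shares exon bases with CR45018, was called over all time points in each comparison of treatments. The adjusted p was 5.55e-07 for wildtype-mated against virgin heads, 0.034 for SP-null-mated against virgin heads and 0.00022 between the mated groups. At 24 h its wildtype-mated heads differed from virgins by -0.53 ± 0.101 (log2, adjusted p = 8.23e-05). CR45018 differed by -0.19 ± 0.135, with no call. The part of reads over common exons in these calls was not tested.

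Averaged over the 10 time points, the differences between treatments were small. Wildtype-mated and virgin heads differed in 5 of the 35 genes (26.1% of all genes): CR31781 by -0.11 ± 0.0323, CR43417 by -0.22 ± 0.0700, CR43459 by 0.14 ± 0.0485, Hsromega by 0.07 ± 0.0256 and CR42862 by 0.07 ± 0.0253 on the log2 scale. Wildtype-mated and SP-null-mated heads differed in CR44779 alone, by 0.18 ± 0.0580 (10.8% of all genes), and SP-null-mated and virgin heads in none (2.03% of all genes). The members called in none of the 6 tests over time points numbered 13, a share not counted over all genes. All of them, among them mimi, CR40469, CR34335, CR44922 and CR44024, have ranges in the plot of levels.

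For 30 pairs of a member and an overlapping or nearest counted gene, the Pearson correlation of log2 CPM over the 87 libraries, which share their depth, day and scaling, ran between -0.30 and 0.80. The highest was for lncRNA:CR45284 and CG18095, which lie 467 bases apart. Others were 0.63 for CR44024 and lgs, a coactivator of Wnt signalling, 0.57 for CR32218 and Su(Tpl), a transcription elongation factor in which CR32218 lies (against -0.01 for Mi-2, in which it also lies), and 0.49 for CR44645 and Obp57a, an odorant-binding protein gene. At 12 h in virgins CR44645 fell by 0.37 ± 0.124 on the log2 scale (adjusted p = 0.0221) and Obp57a by 0.35 ± 0.126 (adjusted p = 0.0349). CR44317 rose by 0.55 ± 0.172 (adjusted p = 0.0135) and 5-HT2A, a serotonin receptor gene 13121 bases away, by 0.46 ± 0.0823 (adjusted p = 1.02e-05). These pairs were chosen after their values were seen.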

How the data were processed

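Raw read counts per gene and per exon bin were deposited by the authors as 2 tables over 87 libraries of female heads; per the submitters' processing notes, Trimmomatic 0.39, STAR 2.7.5a, HTSeq 0.11.2 and edgeR were used, with the builds dm6 and BDGP6, in an order and with settings not given in the sources used here. Libraries were poly(A)-selected and stranded, per the labels' protocols. Of the 90 samples described, 3 had no column and were not analysed here. The table held 9027 gene rows; 50 had no symbol in the gene name table. The members and the gene lists were chosen with earlier results of these data known.

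Gene counts were fitted with edgeR 4.0.16 in R 4.3.3 (quasi-likelihood, robust, TMM scaling, filterByExpr with a minimum count of 10 and a minimum total of 15, which kept 9024 genes), with 1 mean for each of 30 groups, and p-values were adjusted by Benjamini-Hochberg over all genes tested. Standard errors are the log2 difference over the square root of F. CPM are TMM-scaled. The first hour is the mean of 0.5 and 1 h. Exon lengths, coordinates and overlaps come from Ensembl release 115 for BDGP6.54. Exon bin counts were used only as shares of their gene's counts. A call at a single time point was adjusted within its contrast. The fits were tried on counts simulated with a single dispersion for every gene, which differs from the data. There the test for time in virgins recovered 33% of genes changed 1.5-fold at 12 h and 97% of those changed 2-fold. The test of wildtype-mated against virgin heads, with the change set at every time point, recovered 100% of both. Totals of 15411046 to 103387056 counts per library limit what low genes can show. The standard errors hold both counting error and the spread between repeats.

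Genes given with full values were, by rule, up to 8 called in virgins and up to 6 in each comparison of treatments by smallest p, the 5 highest and 3 lowest per kilobase, microRNA hosts and members with a name of their own. Repeat letters pair the samples, because the design states that the whole series was run 3 times. Same-letter libraries at a time point had correlated deviations of -0.23 to 0.33 (median 0.078), above 0.1 in 36 of 84 pairs. Alternatives were no filter on low counts, a replicate block, DESeq2 1.42.0, scaling by RLE size factors, each repeat left out, the 24 h contrast left out, and thresholds of 50 and 200. Leaving out each wildtype-mated 24 h library was chosen after seeing the data.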

Additional observations from a re-analysis of the deposited data

Results flagged for a closer look

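lncRNA:CR43411 differed between treatments by an amount that changed over the 10 time points. A test of that change itself, an interaction of treatment and time in edgeR's quasi-likelihood fit, gave an adjusted p of 0.000239 for wildtype-mated against virgin heads and 0.000383 for wildtype-mated against SP-null-mated heads. The 24 h log2 differences were -1.42 and -1.53, and no other time point was called. lncRNA:CR42491 had the same kind of change, with an adjusted p of 0.00945 against virgins and 0.0447 against SP-null-mated heads; it was lower in wildtype-mated heads at 24 h in both comparisons and higher than in SP-null-mated heads at 12 h. Both comparisons use the same wildtype-mated libraries. No cause was tested for either gene, and how reads over the common exons of CR42491 and RpL22 were assigned was not given in the sources used here.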

How the results depend on the processing

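With a replicate block the count of members called between SP-null-mated and virgin heads was 1 rather than 0 (CR45018, also 1 with DESeq2 and 1 without the 24 h contrast), and for virgins at 24 h against the first hour 2 rather than 1. The block changed no other call made without it among the 63 single-gene calls. Without the 24 h contrast the counts were 11 for time in wildtype-mated heads, 0 between wildtype-mated and virgin heads and 1 between wildtype-mated and SP-null-mated heads. Leaving out 1 repeat, or 1 of the wildtype-mated 24 h libraries where they enter, gave 9 to 17 members for time in wildtype-mated heads, 6 to 9 in SP-null-mated heads and 3 to 10 in virgins. In the same way it gave 1 to 6 between wildtype-mated and virgin heads, 1 to 6 between wildtype-mated and SP-null-mated heads, 4 to 7 for virgins at 12 h, 0 for virgins at 24 h and 5 to 20 (18 with all libraries) over the single time points. A threshold of 50 gave 62 members and one of 200 gave 19. All 63 single-gene calls kept their direction under the 7 alternatives planned for them, and 18 stayed called under every one; RLE size factors and DESeq2 each lost 3, and leaving out repeat A, B or C lost 25, 28 and 32. The cause of these changes was not tested. The least counted member had a median of 101 counts a library, which limits its precision.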
